A study of Rattus norvegicus with 36 samples.

Results

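Thyroid gene expression was compared between rats injected with 88 kBq of 131I and rats that received no radioiodine, 24 h after injection. The members were chosen by their label, the injected activity, and are 4 rats at 88 kBq and 4 controls at 0 kBq, thus 8 of the 36 arrays of the series, which holds 9 groups of 4 rats. All animals were adult male Sprague Dawley rats. The 88 kBq rats received a single injection of sodium iodide labelled with 131I in saline into the tail vein, which corresponds to an estimated absorbed dose to the thyroid of 0.057 Gy. The controls were mock-treated. Each thyroid was frozen on its own and its RNA was hybridised to 1 Agilent rat array, so that each value below comes from 1 rat. The groups were injected in order of rising activity and the controls were handled last, after the 4700 kBq group. The work was done during the day, and no hours of injection or sampling are given, so that the place in this order, and any difference in hour that went with it, cannot be told apart from the injected activity in this comparison. The question was which transcripts differ from controls at the second lowest activity of the series.

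The thyroid follicle takes up iodide through the sodium iodide symporter and couples it to thyroglobulin, a reaction that needs hydrogen peroxide, and this uptake is why 131I irradiates the gland. The thyroid, like most organs, also holds a circadian clock. In it, BMAL1 pairs with CLOCK or NPAS2 and switches on the period, cryptochrome and REV-ERB genes, whose products then hold the activators in check. The pair also switches on output factors such as DBP, and the transcripts of Bmal1 and of Dbp peak at opposite times of the day.

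All values are log2 intensities minus the 75th percentile of the same array, and a difference is 88 kBq minus controls on this log2 scale. A level can be compared between rats for the same probe, not between probes. On the 8 arrays the 75th percentile lay between 2516 and 3890 on the linear intensity scale (median 3008), between 64.2% and 77.3% of the probes were well above background by the call of the scanner's software, and 0 spots were saturated. The number of arrays limits the precision. The median SD of a probe was 0.56 between the 88 kBq rats and 0.61 between the controls. The median difference over all 30367 probes was 0.09, against -0.01 with quantile normalization, and small differences are to be read against this shift.

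The arrays did not hold equal tissue. The mean of the 13 follicle markers was -1.98, -3.62, 3.20 and 2.66 in 88 kBq rats 1 to 4, and 3.01, 1.75, -3.20 and 3.40 in control rats 1 to 4. Thus 88 kBq rats 1 and 2 and control rat 3 had follicle markers below the 75th percentile of their array, while the other 5 arrays had them above it. Among single markers, Tg (thyroglobulin) was 6.20, -2.03, 6.93 and 7.20 in the 88 kBq rats and 6.96, 6.89, 3.18 and 7.37 in the controls. Follicle markers were thus low on 3 of the 8 arrays of labelled thyroid, with Tg itself still bright in 88 kBq rat 1, and in the whole series 18 of 36 arrays were low in the same sense.

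Other tissues varied from rat to rat as much. The 9 lymphoid markers, which include the thymocyte genes Rag1 and Dntt, had a mean of 0.92 in 88 kBq rat 1 and 0.52 in control rat 2, and lay between -6.72 and -6.13 on the other 6 arrays. The keratins and desmoglein of squamous epithelium had a mean of 4.68 in 88 kBq rat 2 and 2.97 in control rat 3, and lay between -4.05 and -3.08 elsewhere. Fast muscle markers were between 5.83 and 7.01 on 7 arrays and 1.52 in 88 kBq rat 3, and slow muscle markers were -3.43 in that rat against 1.05 to 3.73 in all others. The 3 parathyroid markers were highest in 88 kBq rats 3 and 4, with means of 3.95 and 3.78, and in control rat 2, with 1.66. Each of these tissues was unequal within both groups or in a single rat. Results are therefore also given without the 3 arrays low in follicle markers and, for the clock, with the means of the follicle, lymphoid, squamous and fast muscle lists as 4 covariates, alternatives that were added after the data were seen. In bulk RNA, fewer cells of a type and less RNA per cell cannot be told apart.

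**Figure D1:**
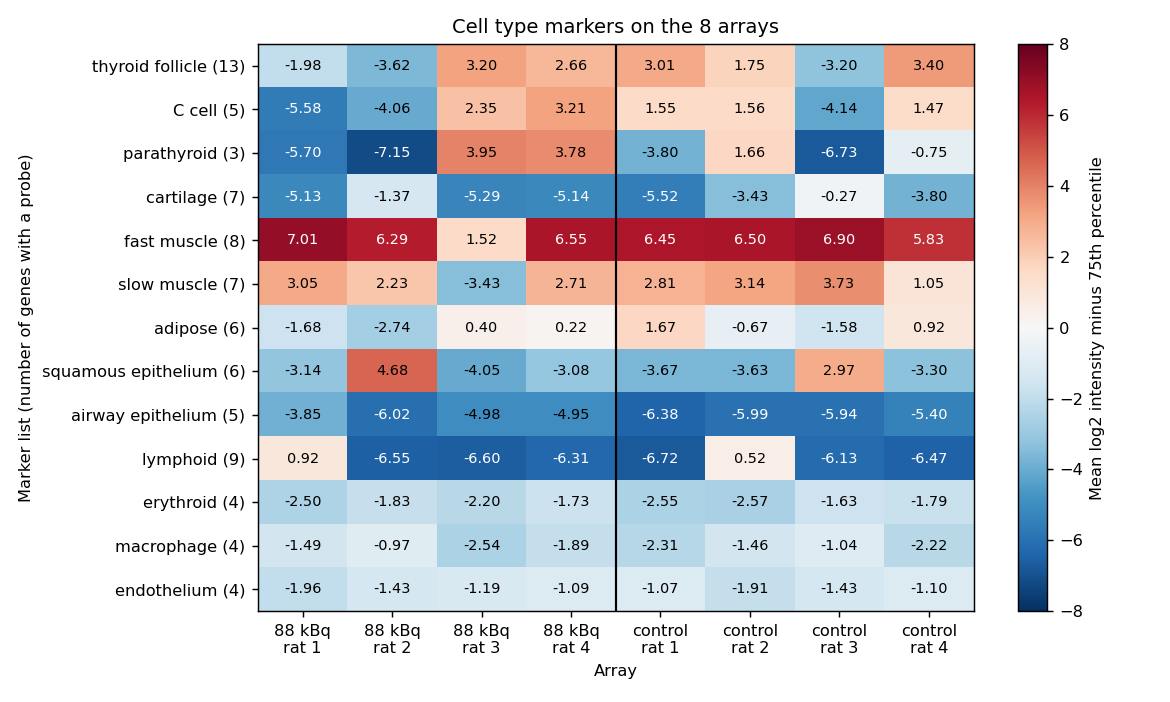
Mean log2 intensity minus the 75th percentile (colour and printed value) of 13 cell type marker lists (rows, number of genes with a probe in parentheses) on each of the 8 arrays (columns). Follicle markers were below 0 in 88 kBq rats 1 and 2 and in control rat 3, and lymphoid markers stood out in 88 kBq rat 1 and control rat 2.

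In all 30367 probes, 0 were regulated at 88 kBq by the criteria of the study, a fold change of 1.5 or more with an adjusted p-value under 0.01 (0% of the probes tested). This count depended on the processing. It became 4 with quantile normalization and with the table deposited by the authors. It became 2 with the normexp correction, 3 with a filter on dim probes and 6 with array weights. It stayed 0 with median centring and with slide or scan day as a block. With the main scaling, at an adjusted p-value under 0.05 and the same fold change, 4 probes differed (0.0132%). They were the 3 probes of Dbp, which were lower at 88 kBq, and a probe of Bmal1, which was higher. At an unadjusted p-value under 0.05, limma called 1020 probes (3.36%). This is a smaller share than the threshold passes on average where no probe differs. With a fold change of 1.5 or more and an unadjusted p-value under 0.01, 145 probes were higher (0.477%) and 29 were lower (0.0955%), so that 83.3% of these 174 probes were higher. That split depended on the scaling, with 64 higher and 63 lower after quantile normalization and 72 each way in the table deposited by the authors. Of the 30360 probes measured on all 8 arrays, 506 were above all 4 controls in each 88 kBq rat (1.67%) and 59 were below (0.194%), which became 310 and 251 with quantile normalization. Calls at an unadjusted p-value are described below as lying on 1 side of the threshold, not as regulated.

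Dbp and Bmal1 were the transcripts that differed most firmly from controls. Dbp encodes a leucine zipper factor and is driven directly by the BMAL1 and CLOCK pair. Its probe A_64_P049827 read 1.62, 0.60, 0.95 and 1.31 in 88 kBq rats 1 to 4, and 3.55, 3.91, 4.73 and 3.09 in control rats 1 to 4. Every 88 kBq rat lay below every control, and this held for the arrays low in follicle markers as for the others. The difference was -2.70 ± 0.44 (SE), a 6.49-fold lower level, with an adjusted p of 0.0146 in limma's test. The other Dbp probes differed by -2.71 (adjusted p = 0.0146) and -2.72 (adjusted p = 0.0358).

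Bmal1, the core activator, ran the other way. Its probe A_44_P214873 read 0.88, 0.66, 0.08 and 0.03 in the 88 kBq rats, and -1.54, -0.88, -2.40 and -1.24 in the controls. Again the groups did not overlap. The difference was 1.93 ± 0.31 (SE), a 3.81-fold higher level, with an adjusted p of 0.0146 in limma's test. A further Bmal1 probe, A_64_P117345, was higher by 1.56 ± 0.36 without overlap, with an adjusted p of 0.454. The exact permutation test of 4 rats against 4, two-sided, gave p = 0.0286 for each of these Dbp and Bmal1 probes, the smallest value it can give. Any probe whose groups do not overlap gets this value, so that it adds nothing to the separation of the rats.

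Both differences kept their direction without the 3 arrays low in follicle markers, and shrank to -2.38 (adjusted p = 0.194) and 1.28 (adjusted p = 0.455) with 5 arrays left. Slide and scan day bear on them as well. The 88 kBq arrays lay on slides 3 and 4 and the control arrays on slides 1, 2 and 5, so that no slide held both groups and no value within a slide exists. With slide as a block, estimated through the other groups, Dbp differed by -2.73 (adjusted p = 0.452) and Bmal1 by 1.71 (adjusted p = 0.974). All 88 kBq arrays and only control rat 1 were scanned on day 2. Against that control alone, the 88 kBq mean differed by -2.43 for Dbp and by 1.96 for Bmal1, and with scan day as a block the differences were -2.78 (adjusted p = 0.066) and 1.74 (adjusted p = 0.127). The direction held in each of these settings, and the call at an adjusted p-value under 0.05 did not. With 1 array left out in turn, Dbp lay between -2.94 and -2.39 and Bmal1 between 1.63 and 2.14, while the number of probes at an adjusted p-value under 0.05 became 0 without 88 kBq rat 2, 88 kBq rat 3 or control rat 3, 1 without control rat 2, and 2 without 88 kBq rat 1 or 4. With the 4 tissue lists as covariates Dbp differed by -2.74 (adjusted p = 0.000166) and Bmal1 by 1.90 (adjusted p = 0.00479), so that both were regulated by the criteria of the study, together with the other Dbp probes, Cry1 at 1.38 (adjusted p = 0.00742) and Per3 A_64_P119407 at -1.23 (adjusted p = 0.00909), 6 probes in all.

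The promoter windows of 4 clock genes are shown because Dbp and Bmal1 carry the main result in opposite directions, and Ciart and Tef, 2 genes of the repressor list, hold clock motifs that the window of Dbp lacks. The windows run from 250 bases before to 50 after the transcription start in RefSeq (build GRCr8, which is not the older build of the array annotation), 5′ to 3′ on the strand of the gene. Searched on both strands were the E-box CACGTG, bound by the BMAL1 and CLOCK pair, the D-box TTANGTAA, bound by DBP and NFIL3, and the half-site AGGTCA, bound by REV-ERB receptors. Matches are in capitals. Dbp lies at chr1:105312006-105312305 (plus strand), Bmal1 at chr1:176766078-176766377 (plus strand), Tef at chr7:115206577-115206876 (plus strand) and Ciart at chr2:186112197-186112496 (minus strand).
Dbp: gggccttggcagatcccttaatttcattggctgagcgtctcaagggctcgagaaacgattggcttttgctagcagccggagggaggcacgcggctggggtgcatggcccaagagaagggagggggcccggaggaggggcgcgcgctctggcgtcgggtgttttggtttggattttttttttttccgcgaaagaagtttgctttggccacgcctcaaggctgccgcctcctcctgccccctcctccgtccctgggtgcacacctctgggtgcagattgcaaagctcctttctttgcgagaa
Bmal1: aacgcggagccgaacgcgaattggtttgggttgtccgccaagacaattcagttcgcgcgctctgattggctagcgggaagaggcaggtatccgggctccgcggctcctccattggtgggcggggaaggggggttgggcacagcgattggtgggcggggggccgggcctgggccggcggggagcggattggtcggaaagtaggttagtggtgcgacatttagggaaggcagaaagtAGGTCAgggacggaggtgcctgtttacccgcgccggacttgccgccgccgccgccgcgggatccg
Tef: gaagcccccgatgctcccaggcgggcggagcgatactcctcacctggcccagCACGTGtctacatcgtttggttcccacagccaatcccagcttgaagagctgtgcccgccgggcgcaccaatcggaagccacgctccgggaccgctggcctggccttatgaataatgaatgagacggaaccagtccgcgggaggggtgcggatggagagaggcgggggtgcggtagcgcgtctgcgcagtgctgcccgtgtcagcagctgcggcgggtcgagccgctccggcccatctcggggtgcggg
Ciart: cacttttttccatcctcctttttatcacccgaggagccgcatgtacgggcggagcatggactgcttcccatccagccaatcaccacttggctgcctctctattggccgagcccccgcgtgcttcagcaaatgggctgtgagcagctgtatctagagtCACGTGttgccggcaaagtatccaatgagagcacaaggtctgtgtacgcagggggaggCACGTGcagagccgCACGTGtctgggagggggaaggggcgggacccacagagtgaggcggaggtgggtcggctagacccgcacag
Ciart held 3 E-boxes, starting at positions -93, -35 and -21, and Tef held 1 at -198. Bmal1 held the half-site from -15 to -10 and no E-box. The Dbp window held none of the 3 motifs, which says only that these letters are not in these 300 bases. Of all 33469 windows in the RefSeq table, 6.42% held CACGTG, 2.24% held TTANGTAA and 16.2% held AGGTCA. In all, 16 of the 19 genes of the repressor and activator lists had a window. Besides Ciart and Tef, the E-box stood in the windows of Bhlhe40 and Bhlhe41 and in window 2 of Nr1d1. Per2 held the D-box and Nr1d2 the half-site. The windows of Per1, Per3, Cry2, Clock, Npas2, Nfil3 and Rora held none of the 3 motifs. The windows shown were thus picked, and whether motifs go with the differences was not tested.

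The repressor list held repressors of the clock together with the output factor Dbp and its relative Tef. Of its 10 genes with a probe, 9 were lower at 88 kBq, with a median difference of -1.15 (all probes, 0.09). Of these, 3 passed an unadjusted p-value under 0.01 and the fold change of 1.5, as did 0.0955% of all probes in that direction. Per3, a period gene, had 3 probes. In A_64_P127337 it read -5.12, -5.11, -5.17 and -5.13 in the 88 kBq rats against -3.78, -3.95, -3.33 and -3.93 in the controls. The groups did not overlap, the SD between the 88 kBq rats was 0.03, and the difference was -1.38 ± 0.30 (adjusted p = 0.296 in limma's test). The other Per3 probes differed by -1.24 and -1.11, also without overlap. Ciart, a repressor of the BMAL1 and CLOCK pair, read -8.69, -5.53, -9.04 and -8.65 against -5.53, -4.76, -3.32 and -7.75. It was well above background on 1 of 4 arrays at 88 kBq and on 3 of 4 controls, and the difference was -2.64 ± 0.87 (adjusted p = 1 in limma's test).

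The REV-ERB genes and Tef lay lower without passing that threshold. Nr1d1, which encodes the repressor of Bmal1 transcription REV-ERB alpha, read -0.71, -2.78, -4.67 and -2.63 at 88 kBq and -0.80, -1.17, 0.16 and -1.39 in the controls. Its difference was -1.90 ± 0.93 (adjusted p = 1), with 88 kBq rat 1 among the controls and the other 3 below them. Its relative Nr1d2 showed the same order of rats, with a difference of -1.30 ± 0.49 (adjusted p = 1). Tef, a close relative of Dbp, differed by -1.18 ± 0.49 (adjusted p = 1).

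The remaining genes of the repressor list depended on the arrays kept. Per2 differed by -0.94 ± 0.49, but by 0.16 without the 3 arrays low in follicle markers. Its values at 88 kBq were -4.48 and -3.34 in the low rats and -1.93 and -2.17 in the other pair, against -2.37 to -1.54 in the controls. Bhlhe40 and Per1 differed by -0.32 ± 0.63 and -0.21 ± 0.43. Cry2 alone was positive, at 0.19 ± 0.29, and these 3 did not pass the threshold. Bhlhe41 and Hlf had no probe with a matched name.

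The activator list held Bmal1, Clock and Npas2 together with Cry1 and Nfil3, whose products repress but whose transcripts run nearer to the phase of Bmal1 than to that of Dbp. All 5 genes with a probe had a higher mean at 88 kBq, with a median difference of 1.39. Of these, 2 passed an unadjusted p-value under 0.01 and the fold change of 1.5, as did 0.477% of all probes in that direction. Those 2 were the activator Bmal1 and the repressor Cry1, a cryptochrome. It read 0.07, 0.31, -1.01 and -0.46 in the 88 kBq rats and -2.38, -1.05, -1.05 and -2.55 in the controls, a difference of 1.49 ± 0.39 (adjusted p = 0.993 in limma's test), and the groups did not overlap. Clock differed by 0.97 ± 0.36 (adjusted p = 1), with 88 kBq rat 1 within the controls. Nfil3, a repressor that competes with DBP for the D-box, read -0.47, -0.62, -2.63 and -0.67 against -1.97, -2.68, -2.71 and -2.61, so that 3 of the 4 rats lay above the controls and rat 3 did not (difference 1.39 ± 0.70, adjusted p = 1). Npas2 differed by 0.54 ± 0.61 in the brighter of its probes, and in the other by 0.07, which turned to -0.03 with quantile normalization. Rora had no probe with a matched name.

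The signs of both medians held under each scaling. Both lists were chosen with earlier results of these data known. They include Dbp and Bmal1, so that the medians are not support apart from the results of single genes. The median of the repressor list was between -1.26 and -0.86 and that of the activator list between 1.26 and 1.39 over the 75th percentile, quantile normalization, median centring, the normexp correction and the authors' table. Without the 3 low arrays they were -1.32 and 1.05. Outside both lists no clock gene passed the threshold. Of 8 further output genes 7 were negative (median -0.31, and -0.05 without the 3 low arrays), for instance Usp2, a ubiquitin protease, at -0.99 ± 0.80, and Por, the electron donor of microsomal cytochrome P450 enzymes, at -0.72 ± 0.64. Of 4 genes for kinases and turnover 3 were positive (median 0.23).

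**Figure D2:**
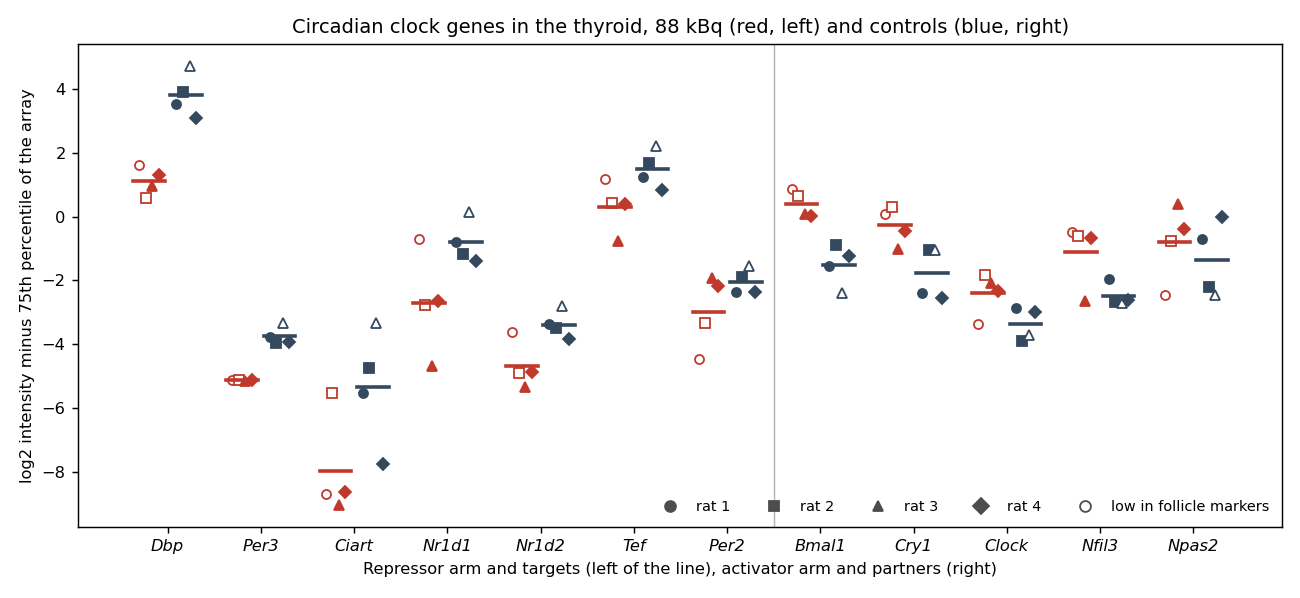
Log2 intensity minus the 75th percentile (vertical axis) of 12 clock genes, 1 probe each, in the 4 rats at 88 kBq (red) and the 4 controls (dark blue); symbols mark rats 1 to 4, open symbols the arrays low in follicle markers, bars the group means. Levels can be compared within a gene only. Dbp and Per3 at 88 kBq lay below all controls and Bmal1 and Cry1 above all of them, in open and filled symbols alike.

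The same transcripts set beside the other groups did not single out 88 kBq. In the order of injection, the mean of Dbp was 1.13 ± 0.50 at 9 kBq, 1.12 ± 0.44 at 88 kBq, 1.15 ± 0.51 at 170 kBq, 1.40 ± 0.55 at 260 kBq, 2.09 ± 0.62 at 340 kBq, 2.92 ± 0.47 at 760 kBq, 3.31 ± 0.98 at 1300 kBq, 4.17 ± 0.66 at 4700 kBq and 3.82 ± 0.69 in the controls (SD, 4 rats each). The 3 groups injected first lay within their spread of each other, and the controls lay beside the 4700 kBq group, which was handled just before them. Bmal1 went from 0.46 ± 0.21 at 9 kBq, 0.42 ± 0.42 at 88 kBq and 0.27 ± 0.50 at 170 kBq to -1.82 ± 0.67 at 4700 kBq and -1.51 ± 0.65 in the controls. Against the mean of 9 and 170 kBq, 88 kBq differed by -0.02 ± 0.38 (SE) in Dbp, -0.17 ± 0.26 in Per3, 0.05 ± 0.27 in Bmal1 and -0.12 ± 0.34 in Cry1. Against the mean of all 7 other irradiated groups, Dbp differed by -1.19 ± 0.33 (adjusted p = 0.99 in limma's test) and Bmal1 by 0.71 ± 0.24 (adjusted p = 0.99). The medians of the repressor and activator lists were -0.14 and -0.12 against the neighbours, and -0.69 and 0.53 against the 7 groups. Injected activity and place in the order of injection rose together over the irradiated groups and cannot be told apart there either.

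**Figure D3:**
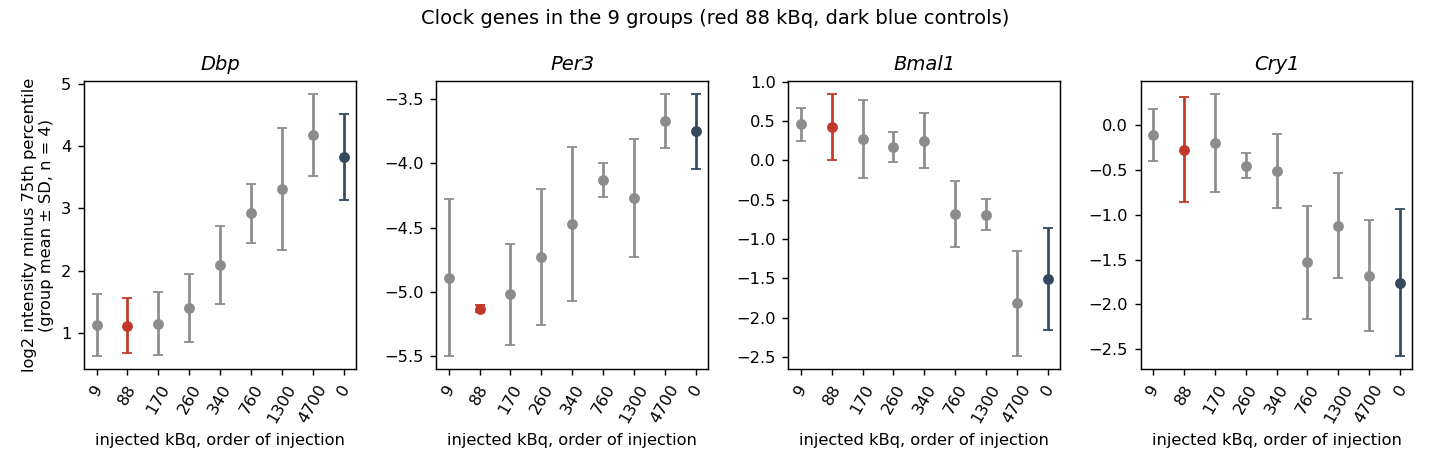
Mean log2 intensity minus the 75th percentile (vertical axes, each with its own range; bars are SD, 4 rats each) of Dbp, Per3, Bmal1 and Cry1 in the 9 groups, placed in the order in which they were injected, with the controls last. The 88 kBq group (red) lay beside 9 and 170 kBq, and the controls (dark blue) beside 4700 kBq.

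At an unadjusted p-value under 0.01, the rule for naming took the 12 higher genes with the smallest p-values, the most it allows, and 8 lower genes, all that met it. It asked for a symbol, a signal well above background on all 4 arrays of the brighter group and groups without overlap. Bmal1, Cry1, Dbp and Per3 were among them. Gpa33, an immunoglobulin-like surface protein of intestinal epithelium, was higher by 1.59 ± 0.44 and Tfdp1, the partner of E2F factors in cell cycle transcription, by 1.10 ± 0.27.

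Nol10 (a nucleolar protein) read -3.39, -3.35, -3.01 and -3.48 at 88 kBq and -4.34, -3.75, -3.93 and -4.29 in the controls, a difference of 0.77 ± 0.18 (adjusted p = 0.473). Utp20 (processing of the small ribosomal subunit) was higher by 0.65, Thumpd1 (acetylation of tRNA) by 0.70, Hnrnph2 (splicing) by 0.74, Leo1 (a subunit of the Paf1 complex in transcription elongation) by 1.11, and Pinx1 (a nucleolar inhibitor of telomerase) by 0.62. Ap4e1, a subunit of an adaptor complex for vesicles, was higher by 0.99 ± 0.21 and was well above background on 2 of 4 controls. These genes were named by their p-values and 0 of them passed adjustment. With quantile normalization their differences were smaller, for instance 0.65 for Nol10 and 0.71 for Ap4e1.

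The lower genes outside the clock were fewer. Sult1a1, a phenol sulfotransferase, read -0.15, 0.88, 0.77 and 1.23 at 88 kBq and 1.89, 1.42, 2.03 and 1.52 in the controls, a difference of -1.03 ± 0.36 (adjusted p = 1), which shrank to -0.61 without the 3 low arrays. Tspan4 (a tetraspanin), Slc1a7 (a glutamate transporter) and Pced1b differed by -0.88, -1.12 and -1.36. Without the 3 low arrays these differences shrank to -0.40, -0.62 and -1.07. Probes assigned to the olfactory receptor genes Or10j3b and Or1j14 differed by -2.59 and -1.14, but these belong to a large family of similar sequences, so that the gene behind the signal is uncertain. Or10j3b was well above background on 1 of 4 arrays at 88 kBq and on all 4 controls. Besides Dbp, a pair of probes was taken from the lists of the study. Probe A_64_P126595, which has no matched symbol, read 2.84, 4.29, 4.59 and 2.42 in the 88 kBq rats and 1.65, -2.28, 2.99 and 2.76 in the controls, so that the groups overlapped (difference 2.25 ± 0.75, adjusted p = 1, between 1.07 and 2.82 with 1 array left out in turn). It was 1.07 without control rat 2. The probe of Slc47a2, a transporter of organic cations, was well above background on 0 of 4 arrays at 88 kBq and on 1 control, and no fold is given.

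**Figure D4:**
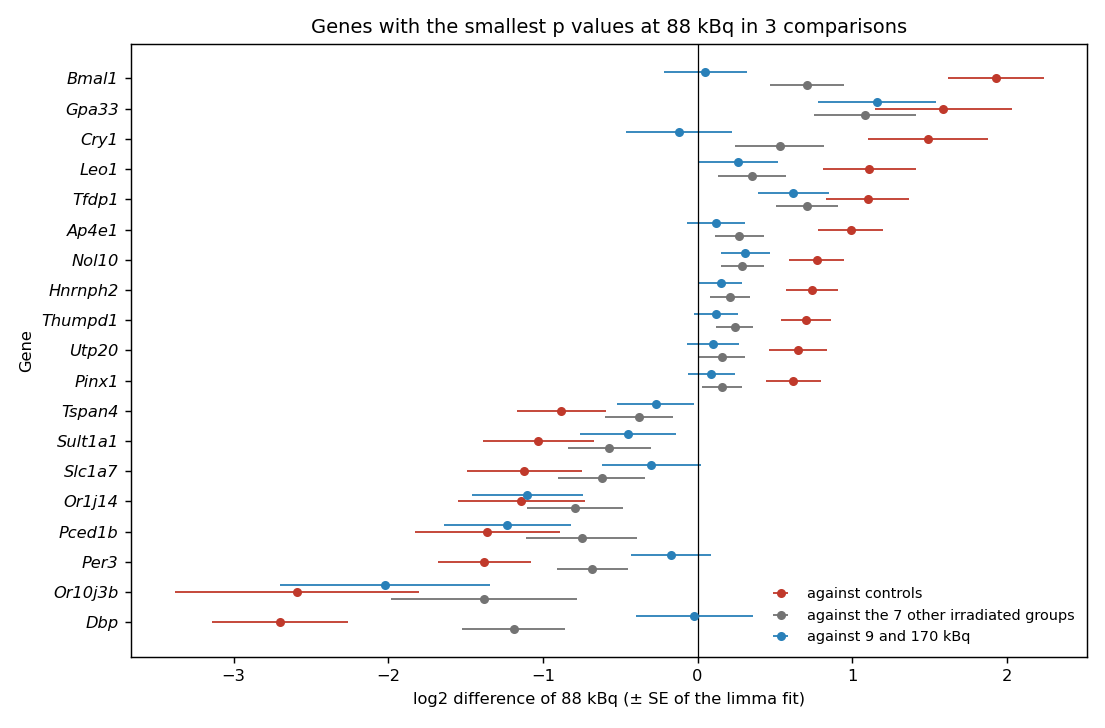
Log2 differences of 88 kBq (horizontal axis, bars are SE of the limma fit) for 19 genes named by the rule (vertical axis) against controls (red), against the 7 other irradiated groups (grey) and against 9 and 170 kBq (blue). Dbp, Per3, Bmal1 and Cry1 lay away from 0 against controls and within 1 SE of 0 against the neighbours. Gpa33, Tfdp1, Pced1b and both olfactory receptor probes kept their sign and lay over 2 SE from 0 in all 3 comparisons. None of these passed adjustment in any comparison. The genes were chosen by their p-values against controls, and the 3 comparisons share the 88 kBq arrays, so that their likeness is not separate support.

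No difference in thyroid function genes was detectable beyond the spread between rats. Of 15 genes for hormone synthesis and iodide transport, 14 were negative (median -0.72) and 0 passed the threshold. Slc5a5, the sodium iodide symporter, read -3.85, -6.70, 3.18 and 2.33 at 88 kBq and 2.54, 0.70, -6.93 and 3.54 in the controls, a difference of -1.23 ± 3.18 (adjusted p = 1). Its value was lowest in the 3 rats low in follicle markers. Tg differed by -1.53 ± 2.59. Without those 3 arrays the differences of Slc5a5 and Tg were 0.49 and -0.01, and the median of the list was 0.06. The thyroid transcription factors and the TSH receptor showed the same pattern. All 5 were negative (median -1.42), with Pax8 at -1.57 ± 2.99 and Tshr at -1.42 ± 1.95, and the median was 0.19 without the 3 arrays. With SEs between 1.95 and 3.18 for the 4 genes named here, a change of a few fold was not detectable on these arrays.

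Targets of p53, the factor that drives growth arrest and apoptosis after DNA damage, were spread around the median of all probes. Of 20 with a probe, 12 were positive and 8 negative (median 0.20, all probes 0.09), and 0 passed the threshold. Cdkn1a, the inhibitor of cyclin-dependent kinases, read 0.99, 3.62, 0.97 and 1.06 at 88 kBq and 0.18, 0.76, 3.25 and 1.61 in the controls (difference 0.21 ± 0.82). Its highest value in either group was in the rat with squamous markers. Aen, a nuclease induced by p53 in apoptosis, was the 1 listed target above all controls in each 88 kBq rat. Of all probes measured on the 8 arrays, 1.67% lay above all controls, and 1.02% with quantile normalization. In the brighter of its 2 probes Aen read 1.56, 1.39, 1.67 and 1.38 against 0.86, 1.03, 1.0 and 0.53. The difference was 0.65 ± 0.41 (adjusted p = 1 in limma's test), and 0.72 without the 3 low arrays. Ccng1 and Perp differed by 0.23 ± 0.76 and -0.26 ± 2.28.

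Of 15 genes for DNA damage signalling and repair, 12 were positive (median 0.21) and 0 passed the threshold, and the median was -0.07 without the 3 low arrays. Parp1 (strand break sensing) and Xrcc6 (end joining) differed by -0.06 ± 0.24 and -0.02 ± 0.21, Apex1 and Xrcc1 (base excision repair) by 0.08 ± 0.24 and 0.05 ± 0.41. All 13 cell cycle genes were positive (median 0.67), and 0 passed. Their mean was 0.89, 0.12, -3.09 and -2.87 in the 88 kBq rats and -2.78, 0.46, -2.52 and -2.68 in the controls, high on the 2 arrays with lymphoid markers and in 88 kBq rat 2. Cdk1, the mitotic kinase, differed by 0.67 ± 1.29 and Rrm2, a ribonucleotide reductase subunit, by 0.89 ± 1.49. Without the 3 low arrays, which leaves lymphoid markers in a control rat only, the median was -1.36.

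Among stress lists, 10 of 12 glucocorticoid-responsive genes were negative (median -0.51, -0.58 with quantile normalization and -0.52 without the low arrays). Past the threshold was 1 of them (0.0955% of all probes were lower at it). This was Cebpd, a CCAAT-binding factor, which read 2.30, 1.42, 1.62 and 2.44 at 88 kBq and 3.50, 2.57, 1.99 and 3.77 in the controls (difference -1.01 ± 0.35, adjusted p = 1), with control rat 3 inside the range of the 88 kBq rats. Klf9, a zinc finger factor that was singled out after its values were seen, was below all controls in each 88 kBq rat, with 1.36, 0.64, 0.93 and 1.34 against 1.71, 1.73, 2.26 and 1.63 (difference -0.76 ± 0.30, adjusted p = 1). Of all probes measured on the compared arrays, 0.194% lay below all controls, and 0.827% with quantile normalization. Fkbp5 and Tsc22d3 differed by 0.07 ± 0.67 and -0.12 ± 0.40.

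Of 17 immediate early genes 15 were negative (median -0.24, and -0.40 without the 3 low arrays), with Jun at -0.54 ± 0.39 and Nr4a1 at -0.88 ± 0.77. Of 10 genes of oxidative phosphorylation all were negative (median -0.29), by at most 0.44, as for Cox4i1 at -0.36 ± 0.38, and the lowest list mean was 4.01 in 88 kBq rat 3, the rat with few muscle transcripts. Heat shock chaperones (7 genes, median -0.09), redox defence (12 genes, -0.06), cholesterol synthesis (13 genes, 0.21), interferon and antigen processing (15 genes, -0.01), MHC class II (8 genes, -0.02) and the cold-inducible pair Cirbp and Rbm3 (-0.16) had 0 members past the threshold, and their medians lay between -0.22 and 0.17 without the 3 low arrays. The 13 chaperone and stress genes of the endoplasmic reticulum also had 0 past the threshold, and their median of 0.07 became 0.61 without the 3 low arrays, 0.54 with slide as a block and 0.39 with the 4 tissue covariates. Their mean was 0.79, 0.85, 2.81 and 2.21 at 88 kBq and 2.06, 1.45, 0.80 and 2.25 in the controls, lowest on the 3 arrays low in follicle markers. Among single genes of these lists Hspa8 differed by -0.09 ± 0.22, Hspa5 by 0.14 ± 0.74, Sod1 by -0.11 ± 0.23, Hmgcs1 by 0.18 ± 0.68 and Cd74 by -0.02 ± 0.42.

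**Figure D5:**
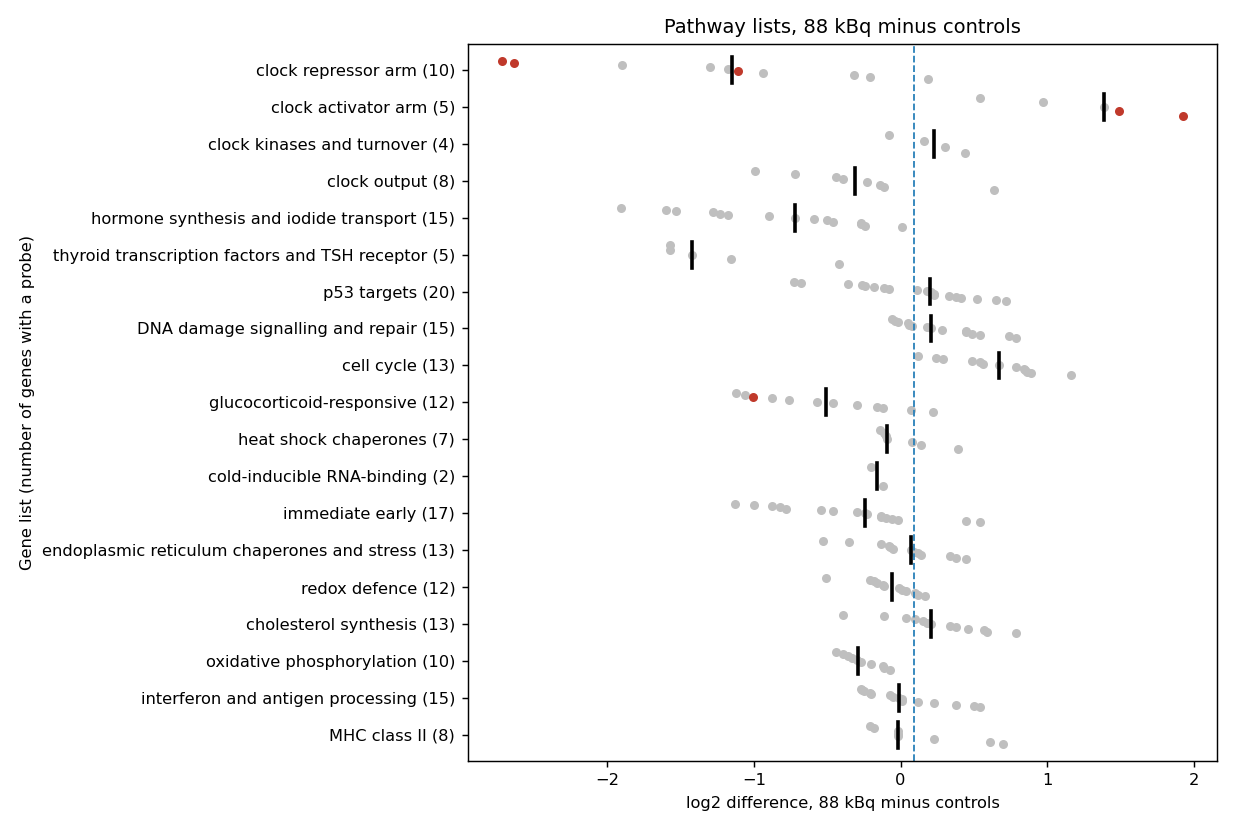
Log2 difference of 88 kBq minus controls (horizontal axis) for each gene with a probe in 19 pathway lists (rows). Black bars are list medians, the dashed line is the median of all probes (0.09), and red points had a fold change of 1.5 or more with an unadjusted p-value under 0.01. Red points stood in the 2 core clock lists, and 1 in the glucocorticoid list.

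Of the marker lists, 12 of 13 had 0 members past the threshold. The exception was Tekt1, a protein of the ciliary axoneme in the airway list, which read -4.64, -5.58, -4.34 and -4.33 against -5.88, -6.04, -6.14 and -5.81 (difference 1.25 ± 0.39, adjusted p = 1), and was 1.58 without the low arrays. It fell short of the threshold with quantile normalization (1.05, unadjusted p = 0.0368 in limma's test) and with slide as a block (0.97, unadjusted p = 0.0428 in limma's test). Of all probes, 0.477% were higher past the threshold. The other airway genes with a probe were positive too, from 0.01 for Foxj1 to 1.74 for Rsph1. Of the 5 airway genes with a probe, 2 were well above background on all 8 arrays. Pth, parathyroid hormone, read -2.98, -7.73, 6.51 and 6.67 at 88 kBq and -6.80, 6.46, -7.81 and 4.04 in the controls, so that its spread within each group was far larger than the difference of 1.65 ± 4.47.

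Set against the 7 other irradiated groups, 0 probes at 88 kBq passed an adjusted p-value under 0.01 or 0.05 (0%), with 0.592 as the smallest, and 85 probes passed the unadjusted threshold with the fold change (0.28%). Of these 49 were higher and 36 lower, and 698 probes passed an unadjusted p-value under 0.05 (2.3%). Set against 9 and 170 kBq, 0 probes passed adjustment (0%), with 0.999 as the smallest adjusted p-value. The unadjusted threshold with the fold change was passed by 63 (0.207%), 31 higher and 32 lower, and 417 passed an unadjusted p-value under 0.05 (1.37%). These comparisons use no control array. With genes named in the same way but whether or not the groups overlapped, Zfp367 was higher than the 7 groups by 0.71 ± 0.18 and Tfdp1 by 0.71 ± 0.20, and Jun was lower, at -0.91, as was Dbp. Ripor2 was higher by 1.38 ± 0.40 than the 7 groups and by 1.37 ± 0.46 than the neighbours. Gpa33 was higher than the neighbours by 1.16 ± 0.38. Cbln3 was lower than the neighbours, at -0.91 ± 0.27, and Or51e1 and Or1j14 were lower than the neighbours, at -1.18 ± 0.32 and -1.10 ± 0.36.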

How the data were processed

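RNA of single thyroids was hybridised to 1-colour Agilent rat arrays, 1 per rat. The scanner files deposited by the authors hold spot intensity values from which Agilent's Feature Extraction software had subtracted background and spatial trend, with no normalization between arrays. The table deposited by the authors holds quantile-normalized intensity values on a linear scale. The study analysed its data in Nexus Expression without naming a test.

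Control and outlier spots were dropped, log2 processed intensity was set relative to its 75th percentile on the same array, and spots were averaged over 30367 probes, of which 17998 received 1 RefSeq symbol by accession and 12369 none. limma 3.58.1 in R 4.3.3 fitted 1 mean per group to all 36 arrays, with Benjamini-Hochberg adjustment over all probes. Of the 8 arrays compared, 7 probes lacked a value on at least 1 and were fitted on the rest. Single genes had a two-sided exact permutation test (smallest p, 0.0286). Rats were separate animals. The fit was tested on simulated data.

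Lists (19 pathway, 13 marker) and members were chosen with earlier results of these data known, with 1 probe per gene, the brightest. Named were probes at an adjusted p under 0.05, up to 12 genes per direction by limma's p at an unadjusted p under 0.01, a fold change of 1.5, a full signal in the brighter group and no overlap, all clock genes, list members past that threshold or otherwise the 4 brightest, a pair of probes from the study's lists besides Dbp, and 3 genes per direction in the comparisons without controls, overlap allowed.

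Alternatives were quantile normalization, median centring, normexp (offset 50), the authors' table, a dim-probe filter (21523 probes kept), slide, scan day or rat number as a block, trend and robust options, array weights, a fit of the 8 arrays, other thresholds and each array left out. Leaving out arrays low in follicle markers and adding 4 marker list means as covariates were chosen after seeing the data. Some named genes are not reported here, and hormone and PCR measurements were not analysed here.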

Additional observations from a re-analysis of the deposited data

Results flagged for a closer look

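In the groups of 4 rats, 16 of 160 sets of values had a highest or lowest rat whose gap to the nearest other rat took up over 0.829 of the range of the group. Chance marks about 1 in 20 such sets, and sets that share a rat are not independent. Among clock genes, Nfil3 at 88 kBq had a low value in rat 3 (0.905 of the range) and in the controls a high value in rat 1 (0.859), and Ciart at 88 kBq had a high value in rat 2 (0.887). The probe of Or10j3b at 88 kBq was lowest in rat 2 (0.857).

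The other 12 were means of gene lists. In 88 kBq rat 2, cartilage (0.96) and squamous epithelium (0.889) stood high. In 88 kBq rat 3, fast muscle (0.87) and slow muscle (0.873) stood low, and in 88 kBq rat 1 lymphoid markers (0.961) stood high. In control rat 2, lymphoid markers (0.92), the cell cycle (0.92) and MHC class II (0.834) stood high. In control rat 3, squamous epithelium (0.944) stood high, and C cell markers (0.983), the cold-inducible pair (0.897) and clock kinases and turnover (0.829) stood low. The part of these rats in the differences between groups was not tested beyond the fits that leave arrays out.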

How the results depend on the processing

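Slide, scan day, unequal tissue and 4 rats per group limit the comparison, and signal over background limits Ciart, Or10j3b and Slc47a2. The cause of each shift below was not tested unless fewer arrays or probes entered the fit. Against controls, the 0 probes at an adjusted p under 0.01 became 4 with quantile normalization and with the authors' table, 2 with normexp, 3 with the dim-probe filter, 6 with array weights, 1 without the 3 low arrays, 6 with 4 tissue lists as covariates, 4 at an adjusted p under 0.05, and 0 to 1 (without control rat 1) with an array left out. The 4 probes at an adjusted p under 0.05 became 2 with median centring, 0 with slide, with scan day, with the 8 arrays alone and with the 18 arrays high in follicle markers, 29 with array weights, 1 without the 3 low arrays and 12 with tissue covariates. With 1 array left out they ranged from 0 (88 kBq rat 2 or 3, or control rat 3) through 1 (control rat 2) and 2 (88 kBq rat 1 or 4) to 4.

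The 145 higher probes at an unadjusted p under 0.01 became 64 with quantile normalization, 71 with median centring, 69 with normexp, 72 with the authors' table, 52 with slide, 77 with scan day, 1018 with array weights, 353 without the 3 low arrays, 397 with tissue covariates, 916 with the arrays high in follicle markers, 90 at a fold of 2, and 91 to 293 with an array left out (293 without 88 kBq rat 1, 225 without 88 kBq rat 4, 91 without control rat 1). The 29 lower probes became 63, 12 and 72 with quantile normalization, normexp and the authors' table, 18 with the dim-probe filter, 58 with array weights, 16 without the 3 low arrays, 88 with tissue covariates, and 18 (without control rat 3) to 43 with an array left out.

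Against the 7 irradiated groups, array weights gave 1 and 14 probes at an adjusted p under 0.01 and 0.05, and leaving out the 3 low arrays 1 and 4. The 85 probes at an unadjusted p under 0.01 became 26 with normexp, 56 with the dim-probe filter, 591 with array weights, 271 without the 3 low arrays, 333 with the arrays high in follicle markers, 53 at a fold of 2 and 65 to 167 with an array left out (167 without 88 kBq rat 2, 162 without 88 kBq rat 4). Against the neighbours, leaving out the 3 low arrays gave 1 and 3, the arrays high in follicle markers 1 and 4, and array weights 8 at an adjusted p under 0.05. The 63 probes became 9 with normexp, 36 with the dim-probe filter and with scan day, 545 with array weights, 292 without the 3 low arrays, 129 with tissue covariates, 595 with the arrays high in follicle markers and 48 to 148 (without 88 kBq rat 2) with an array left out. In both, an array left out gave 0 after adjustment.

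The sign turned for some named genes. Without the 3 low arrays, and with the arrays high in follicle markers, Per2 was 0.16, Coq10b 0.27, Wee1 0.08, Csnk1d A_64_P133899 0.01 and Csnk1e A_64_P127944 -0.11. Csnk1e A_64_P127944 was -0.04, -0.07 and -0.04 with quantile normalization, median centring and the authors' table, -0.09 with slide, -0.07 with scan day and -0.04 with tissue covariates. Npas2 A_64_P024222 was -0.03, -0.04 and -0.04 with those scalings, -0.26 with slide and -0.05 with tissue covariates. Array weights gave 0.01 for Csnk1d, 0.03 for Per1 and 0.09 for Rgs16. With an array left out, Npas2 A_64_P024222 ranged from -0.14 to 0.31, Csnk1e A_64_P127944 from -0.06 to 0.21, Csnk1d A_64_P133899 from -0.17 to 0.03, Timeless from -0.97 to 1.03, Alas1 from -0.39 to 0.16, Rgs16 from -0.39 to 0.14, Per1 from -0.48 to 0.01 and Cry2 from -0.06 to 0.34.

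The rat numbers share only a number. Deviations of same-numbered rats correlated with r = -0.25, -0.26, -0.55 and 0.44 across probes, and no rat correlated best with its own number. With the rat number as a replicate block, 0 probes passed an adjusted p under 0.01 and 3 passed 0.05, and Dbp A_64_P017188 had an adjusted p of 0.0552.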

Other observations

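Cells and tissues other than the follicle were measured on every array and differed between rats. Calca, the C cell hormone calcitonin, read -3.60, -5.90, 6.64 and 7.21 in 88 kBq rats 1 to 4 and 6.90, 6.27, -2.80 and 6.95 in control rats 1 to 4, low on the same 3 arrays as the follicle markers. Ucp1, the uncoupling protein of brown fat, read -3.56, -7.38, 2.21 and 1.89 against 3.49, -0.92, -7.41 and 4.29. Adipoq, the fat cell hormone adiponectin, read 0.61, -0.15, 2.29 and 2.44 against 3.89, 1.5, 1.60 and 2.76, and all 6 adipose genes with a probe were negative (median -1.06, and -0.34 without the 3 low arrays). Col2a1, the collagen of cartilage, read -1.98, 0.87, -4.87 and -4.93 against -5.32, -1.41, 1.65 and -2.47. Macrophage, endothelial and erythroid lists had medians of 0.08, -0.01 and -0.04.

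Of the 145 probes higher at an unadjusted p-value under 0.01, 68 had a symbol, 94 were well above background on all 4 arrays at 88 kBq and 81 did not overlap with controls. With slide as a block 35 of them kept p under 0.01, with quantile normalization 55, and without the 3 low arrays 56. Of the 29 lower probes 23 had a symbol and 15 did not overlap. With slide as a block 13 kept p under 0.01, with quantile normalization 27, and without the 3 low arrays 12. Over all 30360 probes measured on the compared arrays, 1.67% lay above all controls and 0.194% below. The 145 and 29 probes were picked by their difference on these same arrays, so that their counts without overlap are partly built in.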
